A study of Mus musculus with 18 samples.

Results

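Hmgcs1, Idi1, Fdps, Fdft1, Sqle, Cyp51 and Msmo1 encode 7 enzymes of cholesterol synthesis. Their mRNA was followed on 18 one-colour Affymetrix arrays of C3H10T1/2 cells, an established mouse fibroblast line used as a model of adipogenesis, which is the formation of fat cells. Members were all probe sets that the array annotation gives a symbol of these 7 genes and no other: 10 of the 12488 probe sets on the array, 4 of them for Fdps and 1 for each of the others. The 7 genes are among 8252 with a probe set named for them alone. A probe set is the group of short oligonucleotides that reports a transcript. Each gene is described by its brightest probe set over the 18 arrays.

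The arrays formed 8 groups, all harvested 72 h after the last addition of serum and 24 h after confluence. Each array carried mRNA pooled from 6 cultures. The group named UT (3 arrays) has no EGF, TCDD or IDMB in its labels. EGF, epidermal growth factor, was present at 10 nM for 24 h, and TCDD, a dioxin that activates the aryl hydrocarbon receptor, at 10 nM for 72 h. IDMB is an adipogenic mixture, present for 24 h, of 10 µg/mL insulin, 1 µM dexamethasone, IBMX (0.5 µM as labelled, a unit that could not be checked here and may be an error) and 1 µM BRL49653, the PPARγ agonist rosiglitazone. The TCDD, EGF and EGF+TCDD groups had 2 arrays each, the IDMB group 3, and the IDMB+TCDD, IDMB+EGF and IDMB+EGF+TCDD groups 2 each.

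Cells build cholesterol from acetyl units through mevalonate, isoprenoid diphosphates, squalene and lanosterol. Hmgcs1 makes HMG-CoA, Idi1 interconverts the basic isoprenoid units and Fdps joins them into farnesyl diphosphate, which also feeds protein prenylation. Fdft1 (squalene synthase) takes farnesyl diphosphate into the sterol branch, Sqle (squalene epoxidase) adds the oxygen from which lanosterol forms, Cyp51 removes a methyl group from lanosterol, and Msmo1 acts in the removal of further methyl groups. Genes of the pathway are known targets of the SREBP transcription factors, chiefly SREBP-2, which are released from the endoplasmic reticulum when sterols are scarce. SREBP acts with NF-Y and Sp1 at many of these promoters.

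Because the 7 genes are known to share these regulators, their promoters were read first. RefSeq promoter windows on mouse build GRCm38.p6, running from 250 bases before to 50 bases after the annotated start, were matched for 4 of the 7 members. The 250 bases before the start are shown 5′ to 3′ on the gene's strand. Capitals mark matches, on either strand, to 3 motifs: the core of the sterol regulatory element, TCACNCCAC (reverse GTGGNGTGA), the NF-Y box, CCAAT (reverse ATTGG), and the Sp1 box, GGGCGG (reverse CCGCCC). The stretches are chr13:119690101-119690350 on the plus strand for Hmgcs1, chr13:8885356-8885605 on the plus strand for Idi1, chr5:4104698-4104947 on the minus strand for Cyp51 and chr8:64733579-64733828 on the minus strand for Msmo1.
Hmgcs1: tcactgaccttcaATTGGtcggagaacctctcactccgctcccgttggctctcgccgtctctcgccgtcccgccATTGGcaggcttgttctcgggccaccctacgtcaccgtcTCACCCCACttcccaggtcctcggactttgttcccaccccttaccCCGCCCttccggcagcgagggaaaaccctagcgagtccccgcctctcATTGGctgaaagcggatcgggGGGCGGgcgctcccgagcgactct
Idi1: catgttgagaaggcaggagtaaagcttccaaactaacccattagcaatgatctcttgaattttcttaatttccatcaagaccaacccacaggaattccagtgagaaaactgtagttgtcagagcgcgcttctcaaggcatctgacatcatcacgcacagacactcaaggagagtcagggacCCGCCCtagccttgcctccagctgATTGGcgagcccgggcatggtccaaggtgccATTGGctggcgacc
Cyp51: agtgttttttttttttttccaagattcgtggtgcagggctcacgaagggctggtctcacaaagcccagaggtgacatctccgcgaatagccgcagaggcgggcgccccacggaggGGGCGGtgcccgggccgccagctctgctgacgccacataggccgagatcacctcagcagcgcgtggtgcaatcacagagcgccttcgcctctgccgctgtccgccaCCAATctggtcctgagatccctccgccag
Msmo1: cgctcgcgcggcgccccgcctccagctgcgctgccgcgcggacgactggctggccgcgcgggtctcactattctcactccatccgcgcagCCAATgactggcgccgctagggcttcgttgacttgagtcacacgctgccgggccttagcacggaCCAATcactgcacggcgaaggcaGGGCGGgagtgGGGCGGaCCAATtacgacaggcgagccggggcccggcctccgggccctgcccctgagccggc

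In the full windows of 300 bases, Hmgcs1 was the 1 of 4 with a match to the sterol element core, TCACCCCAC from base -137 to base -129 of the start. Of all 32851 RefSeq windows of that length, 1.24% held such a match. All 4 members held an NF-Y box, with 4 in Hmgcs1, 2 in Idi1, 1 in Cyp51 and 3 in Msmo1, and 37.4% of all windows did. Sp1 boxes were also in all 4, with 3 in Hmgcs1, 1 each in Idi1 and Cyp51 and 2 in Msmo1, against 35.7% of all windows. Of these matches, 1 NF-Y box and 1 Sp1 box of Hmgcs1 lie after the start and so outside the printed stretch. The windows of Insig1, Srebf2 and Abca1, genes of sterol control and export, held no sterol element core, 1, 1 and 0 NF-Y boxes, and 3, 5 and 2 Sp1 boxes. A match describes letters only, and binding was not measured. Only exact matches within these windows were sought, so a window without one is not shown to lack a sterol element. The genes are spread over the genome: Hmgcs1 at chr13:119690351-119708260, Idi1 at chr13:8885606-8892396, Fdps at chr3:89093588-89101967, Fdft1 at chr14:63145150-63181687, Sqle at chr15:59315092-59331193, Cyp51 at chr5:4080674-4104697 and Msmo1 at chr8:64718123-64733578 (GRCm38.p6).

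Values are the deposited linear intensities, scaled to a like mean on every array, with array medians between 793 and 936. The cells carried fibroblast transcripts, with 7 of 9 listed markers above the floor of 143.5 on every array. Adipoq, Fabp4, Pparg and Lipe, 4 of the 6 adipocyte markers measured, were higher with IDMB by the test used below. Adipoq, Fabp4 and Lipe were bright enough to test (849.9) only in groups with IDMB. Lpl and Cebpa were not called. Lpl averaged 1807 with IDMB against 771 in UT, but 122.6 with IDMB+TCDD against 269.5 with TCDD. Cebpa averaged 11547 against 4534 in the first pair and 9695 against 12820 in the second. The same split held with EGF present. Adipoq, Lpl and Pparg were called lower with TCDD (2.83% of all probe sets were), and Pparg with EGF (6.04%). Lower with IDMB were 3 of 8 tested fibroblast markers (Col1a1, Thy1 and Pdgfrb) and 2 of 5 genes of dividing cells (Cdk1 and Mcm5). Of all 7134 tested probe sets, 15.5% were called higher and 18.6% lower with IDMB. The part of these markers in the IDMB results was not tested. Markers of other cell types were mostly low: 2 of 6 macrophage, 0 of 5 endothelial, 1 of 5 epithelial and 2 of 5 skeletal muscle markers stayed above the floor on every array. The ratio of 3′ to 5′ actin control signal, a sign of RNA integrity and labelling, ran from 1.23 to 1.93 on the 9 arrays without IDMB and from 1.80 to 3.80 on the 9 with it, so it moved with the main comparison. In RNA from whole cultures, fewer cells of a type and less RNA per cell cannot be told apart.

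The array UT 2 was low for these genes, among others. It was the lowest of the 3 UT arrays for 7 of 7 members, while over all 7134 tested probe sets it was lowest for 30.9%. The lower of the other UT arrays exceeded it by between 1.62-fold (Cyp51) and 4.18-fold (Fdps). UT 2 did not stand apart in its actin ratio, which was 1.43 against 1.37 on both other UT arrays. UT 2 was also the lowest UT array for 5 of 5 measured genes of dividing cells, with Mki67 at 2316 against 6200.5 and 3770.3 and Mcm5 at 3137 against 5943.5 and 9519.9. Values or ranges without it are given below for the mean effects and for the differences of IDMB and EGF from UT.

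**Figure D1:**
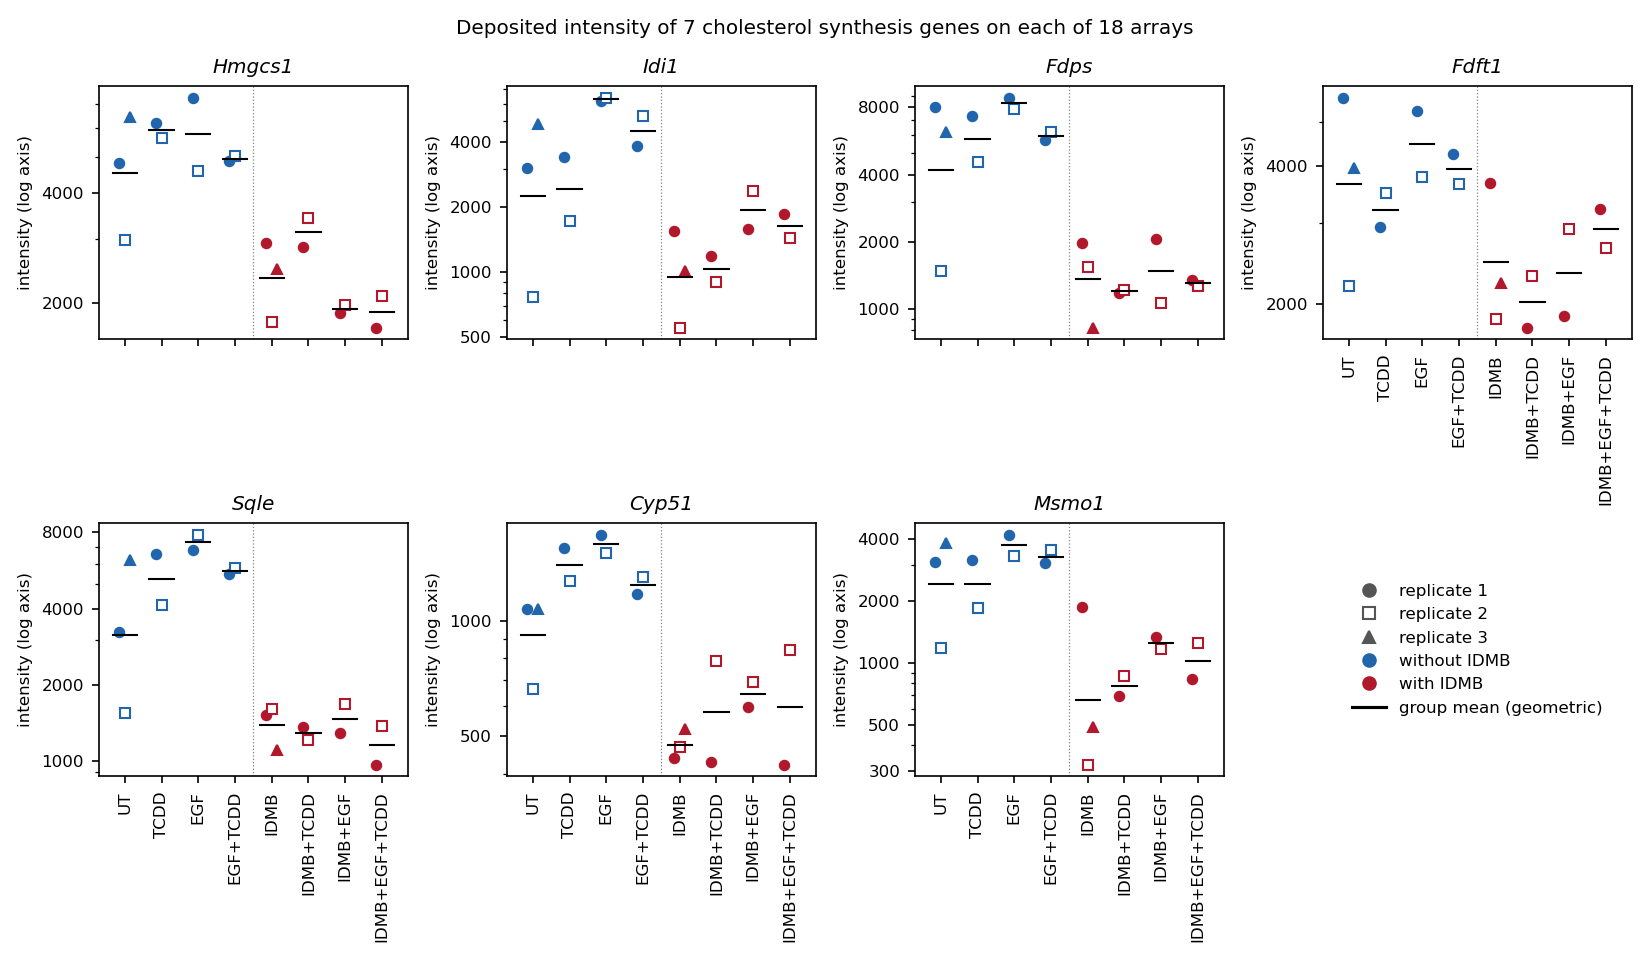
Deposited intensity (log axis) of each gene's brightest probe set on each of the 18 arrays, by group; circles, open squares and triangles are replicates 1, 2 and 3, and bars are geometric means. The groups with IDMB (red) are the 4 lowest means in all 7 panels, and UT 2 is the lowest blue point in each.

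Hmgcs1, the cytosolic HMG-CoA synthase, read 4836, 2970.4 and 6434 in the UT arrays, 6197 and 5661 with TCDD, 7279 and 4594 with EGF, and 4889.9 and 5028 with EGF+TCDD. With IDMB it read 2910.5, 1771 and 2476.5, with IDMB+TCDD 2849 and 3419, with IDMB+EGF 1881.5 and 1981, and with IDMB+EGF+TCDD 1711 and 2090.4. UT 2 was the only array without IDMB that lay inside the range of the IDMB arrays. Averaged over the 4 backgrounds, IDMB lowered it 2.32-fold (log2 difference -1.21, SE 0.15, limma adjusted p = 1.13e-05).

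Idi1, the isopentenyl diphosphate isomerase, had UT values of 3036, 764 and 4811, TCDD values of 3409 and 1717, EGF values of 6182 and 6398, and EGF+TCDD values of 3815 and 5273. The IDMB arrays gave 1554, 552 and 1009.8, IDMB+TCDD 1188 and 896, IDMB+EGF 1586 and 2357, and IDMB+EGF+TCDD 1862 and 1435. Both EGF arrays lay above all others, and the 2 lowest values were IDMB 2 and UT 2. The mean IDMB effect was a 2.65-fold fall (log2 -1.40, SE 0.30, adjusted p = 0.00179).

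Fdps, the farnesyl diphosphate synthase, had the widest span of group means. It read 8038, 1485 and 6214 in UT, 7331 and 4555 with TCDD, 8867 and 7859 with EGF, and 5734 and 6241 with EGF+TCDD. With IDMB the values were 1981, 1541 and 820.2, with IDMB+TCDD 1183 and 1214, with IDMB+EGF 2064 and 1059, and with IDMB+EGF+TCDD 1342 and 1265. Apart from UT 2, the lowest array without IDMB read 4555 and the highest with it 2064. IDMB lowered Fdps 4.43-fold (log2 -2.15, SE 0.28, adjusted p = 1.86e-05), the largest mean fall among the 7. Its second tested probe set, of a type that the manufacturer marks as shared by a sequence family, fell by 1.49 on the log2 scale (SE 0.21, adjusted p = 4.62e-05). The other 2 were too dim to test, with medians of 101 and 476, and the brighter of them read 351, 627 and 574 with IDMB against 465, 234 and 564 in UT.

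Fdft1, which commits farnesyl diphosphate to sterols, moved least. Its UT arrays read 5646, 2189 and 3962, TCDD 2951 and 3488, EGF 5267 and 3782, and EGF+TCDD 4248 and 3662. The IDMB arrays read 3669, 1848.5 and 2219, IDMB+TCDD 1771 and 2301, IDMB+EGF 1879 and 2909.9, and IDMB+EGF+TCDD 3220.1 and 2645. With UT 2 set aside, 2 IDMB arrays still reached above the lowest array without IDMB. The mean fall was 1.57-fold (log2 -0.65, SE 0.18, adjusted p = 0.0113).

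Sqle, the squalene epoxidase and a second point of control in the pathway, showed the clearest separation relative to its spread. UT arrays read 3215, 1539 and 6214, TCDD 6595 and 4135, EGF 6787 and 7846, and EGF+TCDD 5497 and 5782. IDMB arrays read 1515, 1604.5 and 1102, IDMB+TCDD 1359.6 and 1209, IDMB+EGF 1284 and 1679.6, and IDMB+EGF+TCDD 962 and 1373. The 9 arrays with IDMB reached at most 1679.6, whatever else was given, and the UT values differed among themselves by more than the 9 IDMB values did. The mean fall was 3.87-fold (log2 -1.95, SE 0.21, adjusted p = 2.55e-06).

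Cyp51, the lanosterol demethylase, was the dimmest probe set of the 7. Its group means with IDMB, from 8.89 to 9.33 on the log2 scale, lay under the brightness limit for testing (9.73). Cyp51 was tested only because its means without IDMB passed that limit. Values were 1078, 666 and 1078 in UT, 1554 and 1269.9 with TCDD, 1682 and 1504 with EGF, and 1179.9 and 1301 with EGF+TCDD. With IDMB they were 438, 468 and 523.5, with IDMB+TCDD 428 and 786, with IDMB+EGF 598 and 693, and with IDMB+EGF+TCDD 421 and 841. UT 2 was again the only array without IDMB below the highest IDMB value. IDMB lowered it 2.21-fold (log2 -1.15, SE 0.19, adjusted p = 0.000174).

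Msmo1, the sterol-C4 methyl oxidase, read 3089, 1185 and 3854 in UT, 3184 and 1854 with TCDD, 4223 and 3313 with EGF, and 3071 and 3538 with EGF+TCDD. With IDMB alone its 3 arrays were far apart, at 1873, 322 and 491, while IDMB+TCDD gave 694 and 868, IDMB+EGF 1338 and 1173, and IDMB+EGF+TCDD 838 and 1259. The array IDMB 1 thus lay just above the lower TCDD array. The mean fall was 3.23-fold (log2 -1.69, SE 0.30, adjusted p = 0.000392).

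In all, 7 of 7 members fell with IDMB, with a median log2 difference of -1.40. Over all 7134 tested probe sets the median was -0.04, 34.1% were called in either direction and 18.6% were called lower. A call means an adjusted p under 0.05 after Benjamini-Hochberg adjustment over all tested probe sets. The 4 groups with IDMB held the 4 lowest of the 8 group means for every member, and the highest group exceeded the lowest by between 2.21-fold (Fdft1) and 6.97-fold (Fdps). Most neighbouring groups in that order overlapped array by array. For 6 members the step from the groups without IDMB to those with it ran from UT, and overlapped there through UT 2 alone; for Fdft1 it ran from TCDD, and overlapped too. The 9 arrays with IDMB did not all lie below the 9 others for any member, while they did for 2.14% of tested probe sets. All 7 calls held in each of 18 fits that left out a single array, and without UT 2 the differences ran from -0.74 (Fdft1, adjusted p = 0.00175) to -2.34 (Fdps, 1.08e-07). With the actin ratio as a covariate 5 of 7 calls held: the Idi1 difference was then -1.45 with an adjusted p of 0.277, and that of Fdft1 -0.57 with 0.531. In that fit the share of all probe sets called dropped to 6.28%.

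**Figure D2:**
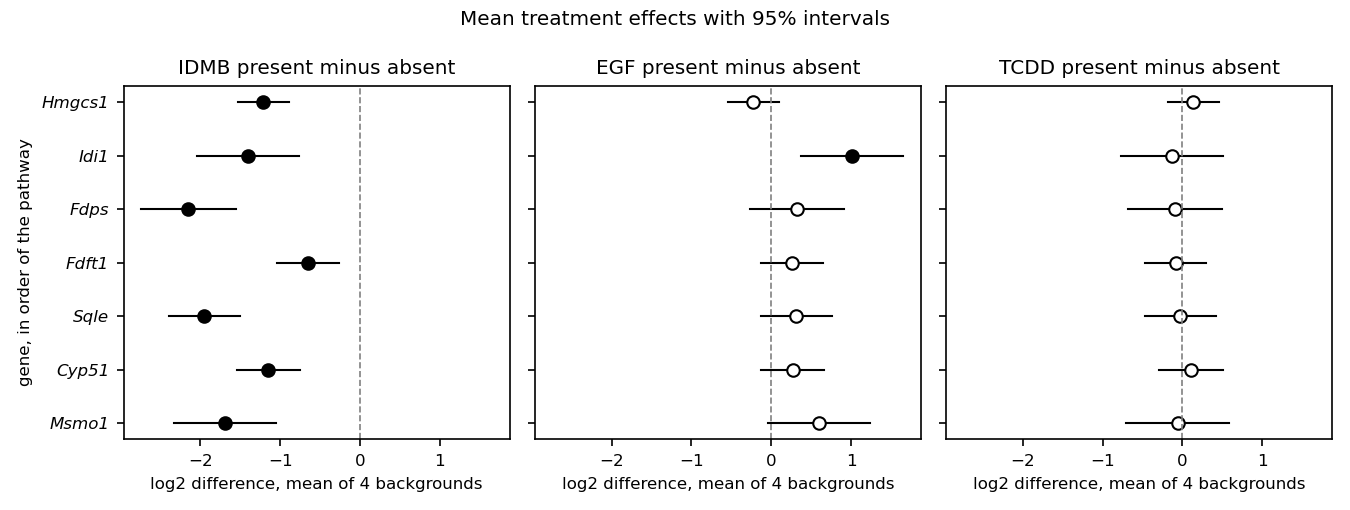
Mean log2 difference of each gene with a treatment present minus absent, averaged over 4 backgrounds, with 95% intervals; filled points passed the test (adjusted p under 0.05). All 7 genes lie below 0 for IDMB, Idi1 is the only filled point for EGF, and no point is filled for TCDD.

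Within single backgrounds the IDMB difference was negative for 7 of 7 members each time, and 14 of the 28 gene and background pairs passed the test. Without EGF or TCDD, 4 of 7 were called lower (7.42% of all probe sets were): Hmgcs1 (log2 -0.95, SE 0.26, adjusted p = 0.0184), Fdps (-1.63, SE 0.48, 0.0293), Sqle (-1.17, SE 0.36, 0.0378) and Msmo1 (-1.86, SE 0.51, 0.0222). Cyp51 differed by -0.95 with an adjusted p of 0.0582, Idi1 by -1.23 with 0.135 and Fdft1 by -0.57 with 0.281. This comparison turned on single arrays. Without UT 2, all 7 were called lower, and the differences ran from -0.94 (Fdft1, adjusted p = 0.0488) to -2.38 (Fdps, 0.000202). In that fit 11.3% of probe sets were called in either direction, against 14.1% with all arrays. UT 2 was the lowest UT array for all 7, so leaving it out could only widen these differences. The count without it is therefore not added support. Without UT 1, without UT 3 or without IDMB 2, no member was called, and without IDMB 3, 1 was.

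On TCDD, 3 of 7 were called lower with IDMB (background 6.28%), namely Fdps (log2 -2.27, SE 0.58, adjusted p = 0.0180), Sqle (-2.03, SE 0.44, 0.00688) and Cyp51 (-1.28, SE 0.39, 0.0413). On EGF, 4 of 7 were (background 5.27%): Hmgcs1 (-1.58, SE 0.31, 0.00367), Fdps (-2.50, SE 0.58, 0.0109), Sqle (-2.31, SE 0.44, 0.00275) and Cyp51 (-1.31, SE 0.39, 0.0420). On both agents, Hmgcs1 (-1.39, SE 0.31, 0.0134), Fdps (-2.20, SE 0.58, 0.0347) and Sqle (-2.29, SE 0.44, 0.00427) were called (background 3.06%). The lead probe sets of Fdps and Sqle passed in every background, and those of Idi1 and Fdft1 in none. The second tested Fdps probe set passed without EGF or TCDD and on EGF, and not on TCDD (-1.30, adjusted p = 0.0637) or on both (-1.04, 0.188). Of the calls made with EGF, TCDD or both present, that of Sqle on EGF alone held in all 18 fits that left out an array. In the 3 backgrounds with EGF, TCDD or both, the arrays of all 7 members did not overlap between the groups, which was also so for 60.5%, 53.7% and 54.4% of all tested probe sets.

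**Figure D3:**
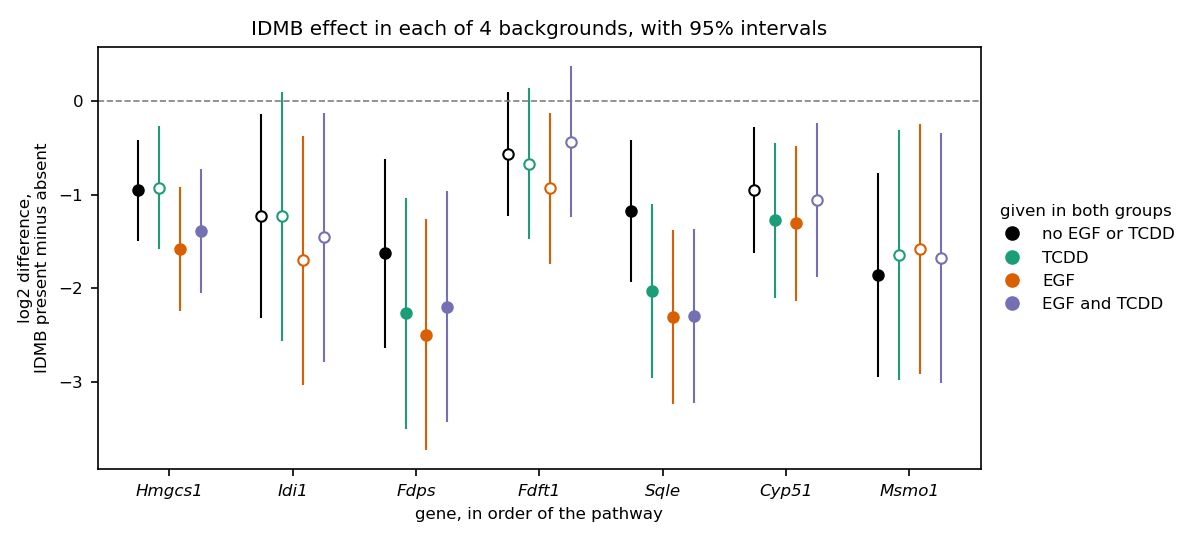
Log2 difference between groups with and without IDMB for each gene in 4 backgrounds (colours), with 95% intervals; filled points passed the test (adjusted p under 0.05). All 28 points lie below 0, and those of Fdps and Sqle (brightest probe sets) are filled in every background.

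The size of the IDMB difference was not shown to depend on the other agents. No member passed the test of the IDMB by EGF interaction (0.126% of all probe sets did) or of the IDMB by TCDD interaction (0.112%), and 0 of 7 had an unadjusted p under 0.05 in either. Sqle had the IDMB by EGF estimate farthest from 0, at -0.70 on the log2 scale with a 95% interval from -1.59 to 0.19.

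Idi1 was the only member called for the mean EGF effect over the 4 backgrounds, where it was higher. Among arrays without IDMB, Idi1 ran from 3815 to 6398 (median 5727) on the 4 with EGF and from 764 to 4811 (median 3036) on the 5 without. Among those with IDMB the 4 EGF arrays ran from 1435 to 2357 (median 1724) and the 5 others from 552 to 1554 (median 1009.8). The ranges overlapped both with and without IDMB. The mean effect was 2.02-fold (log2 1.02, SE 0.30, 95% interval 0.38 to 1.66, adjusted p = 0.0352). Of all probe sets 13.1% were called for EGF, 7.06% higher. It was called in 8 of the 18 fits that left out an array, with adjusted p between 0.0128 and 0.102. The call was lost without TCDD 2, IDMB 2, IDMB+TCDD 2, IDMB+EGF 2 or either array of the EGF, EGF+TCDD and IDMB+EGF+TCDD groups. It was also lost without the filter on dim probe sets and with eBayes without trend. The RNA-quality ratios moved with EGF too. Without IDMB, the actin ratio was 1.37 to 1.43 in UT and 1.23 to 1.43 with TCDD. It was 1.52 to 1.90 with EGF and 1.64 to 1.93 with EGF+TCDD. With IDMB, the like ratio for Gapdh was 1.19 to 1.73 alone and 1.05 to 1.09 with TCDD. It was 1.75 to 1.76 with EGF and 2.13 to 2.86 with both. With the actin or the Gapdh ratio as a covariate, limma called 0 of the 7134 probe sets for EGF, and the Idi1 difference was 0.99 (SE 0.52) and 1.05 (SE 0.78). Without UT 2 it was 0.82 (SE 0.21, adjusted p = 0.0233).

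The other 6 members were not called for EGF with all 18 arrays. Their mean differences were 0.60 for Msmo1 (adjusted p = 0.212), 0.32 for Fdps (0.486), 0.31 for Sqle (0.358), 0.27 for Cyp51 (0.372), 0.26 for Fdft1 (0.383) and -0.23 for Hmgcs1 (0.353). When UT 2 was left out, they ran from -0.30 (Hmgcs1, adjusted p = 0.147) to 0.47 (Msmo1, 0.303), and none was called. Without IDMB 1, Msmo1 was called (0.78, adjusted p = 0.0284). Against UT alone the EGF arrays were nominally higher for all 7, with a median log2 difference of 0.79, but none passed the limma test after adjustment (6.17% of all probe sets did) and 3 had an unadjusted p under 0.05. Without UT 2 that median was 0.24, Hmgcs1 was at 0.05 and Fdft1 at -0.08. Without UT 3, Sqle (1.71, adjusted p = 0.00764) and Idi1 (2.05, 0.0363) were called. When UT 2 was left out instead, Sqle was at 0.71 (adjusted p = 0.292) and Idi1 at 0.72 (0.461), and neither was called. Genes of dividing cells moved with EGF over the same arrays: 5 of 5 measured were called higher (7.06% of all probe sets were). These 5 ran from 1.34-fold for Pcna to 3.43-fold for Mki67 (adjusted p = 0.00372). Their part in the Idi1 difference was not tested.

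TCDD gave no called mean effect in any member. These effects lay between -0.13 (Idi1) and 0.14 (Hmgcs1) on the log2 scale, 0 of 7 had an unadjusted p under 0.05, and limma called 5.54% of all probe sets. The 95% intervals ran from -0.18 to 0.46 for Hmgcs1, from -0.76 to 0.51 for Idi1, from -0.69 to 0.49 for Fdps, from -0.47 to 0.30 for Fdft1, from -0.47 to 0.42 for Sqle, from -0.29 to 0.50 for Cyp51 and from -0.70 to 0.58 for Msmo1. Without UT 2 the mean effects lay between -0.32 (Idi1, adjusted p = 0.469) and 0.06 (Hmgcs1, 0.856), and none was called. In the single comparison of TCDD with UT, Sqle differed by 0.74 (adjusted p = 0.279). It was called without UT 3 (1.23, adjusted p = 0.0300), as was its difference of EGF+TCDD from UT (1.34, 0.0298). When UT 2 was left out instead, these Sqle differences were 0.22 (adjusted p = 0.764) and 0.33 (0.69), and neither was called.

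EGF by TCDD interactions, the class in which 4.47% of all probe sets were called, included no member, again with 0 of 7 under an unadjusted 0.05. EGF+TCDD arrays averaged below EGF arrays for all 7 genes, by 0.18 (Fdft1) to 0.49 (Idi1) on the log2 scale, and none of these differences was called, each with an adjusted p of 0.999 (limma called 0.28% of all probe sets). On the second Fdps probe set this difference was -0.95 (limma adjusted p = 0.905). The comparisons with UT and with EGF share arrays, so their values are not independent.

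Among other steps of cholesterol synthesis, Lss, Nsdhl and Lbr fell with IDMB. Of 15 further pathway genes listed, 11 had a named probe set and 8 were bright enough to test. With IDMB, 3 of the 8 were called lower and none higher, with a median log2 difference of -0.28. Over all tested probe sets, 18.6% were called lower and 15.5% higher. Lss (lanosterol synthase, which closes the sterol rings directly after Sqle) ran from 492 to 2049 without IDMB and from 93.5 to 719 with it, a 2.29-fold fall (log2 -1.20, SE 0.30, adjusted p = 0.00532). Its group means with IDMB, from 380 to 588.5, lay under the brightness limit for testing (849.9), and its lowest value lay under the floor. Nsdhl, which acts with Msmo1 in demethylation, fell by 0.65 (SE 0.12, adjusted p = 0.000742) on its brightest probe set and by 0.95 and 0.93 on its other 2. Lbr, a sterol reductase that also anchors chromatin to the nuclear envelope, fell by 0.43 in the mean effect (adjusted p = 0.0343). It ran from 1761.5 to 5413.4 without IDMB and from 1821.6 to 3874.3 with it. With IDMB alone it did not fall, averaging 2509 against 2312 in UT. Its means with IDMB against without were 2736 against 3744 on TCDD, 3158 against 5314 on EGF and 3214 against 4749 on both. Lbr was the 1 gene of the list called for EGF (higher, log2 0.55, adjusted p = 0.0244). Mvk, Ggps1, Tm7sf2, Ebp and Sc5d were not called, with differences from -0.51 (Sc5d, adjusted p = 0.115) to 0.41 (Ggps1, adjusted p = 0.143). None of the 8 was called for TCDD or for an interaction.

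Of 12 genes that control SREBP or its targets, 5 had a named probe set and 3 were tested. Srebf1, which encodes the SREBP-1 proteins, rose with IDMB while the 7 enzymes fell: it ran from 5029 to 6478 on the 9 arrays without IDMB and from 7388 to 13830 on the 9 with it, with no overlap (log2 0.74, SE 0.07, adjusted p = 1.05e-06). It fell by 0.26 with EGF (adjusted p = 0.0309). Mbtps1, a protease that cuts SREBP precursors, was called higher with EGF (log2 0.26, adjusted p = 0.0232) and with TCDD (log2 0.30, adjusted p = 0.0183). Erlin1 was not called in any of the 3 mean effects. Insig1, the sterol-sensitive anchor of SREBP, was too dim to test, with intensities between 26.4 and 286.5, and the expression of Srebf2 was not analysed here.

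Genes of cholesterol uptake, storage and efflux changed in both directions with IDMB. Of 16 listed, 11 were measured and 9 tested, and of these 5 rose and 4 fell. Over all tested probe sets, 15.5% were called higher and 18.6% lower with IDMB. Abca1, the transporter that exports cholesterol to apolipoproteins, ran from 926 to 3758 without IDMB and from 4513 to 11208 with it, a 4.63-fold rise (log2 2.21, SE 0.22, adjusted p = 1.27e-06). Its partner Abcg1 rose by 1.15, the lysosomal exporters Npc1 and Npc2 by 0.77 and 1.08, and the endocytic receptor Lrp1 by 1.31, all on the log2 scale with adjusted p between 3.82e-08 and 0.000196. Ch25h, which makes 25-hydroxycholesterol, fell by 1.19 (adjusted p = 0.00112), the HDL receptor Scarb1 by 0.72 (0.000686), the lysosomal lipase Lipa by 0.54 (0.00156) and the oxysterol-binding protein Osbp by 0.33 (0.0108). The Ch25h group means with IDMB, from 312 to 428, lay under the brightness limit for testing. Scarb1 was the 1 gene of this list called for EGF, where it fell by 0.68 (adjusted p = 0.00558), and none was called for TCDD.

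**Figure D4:**
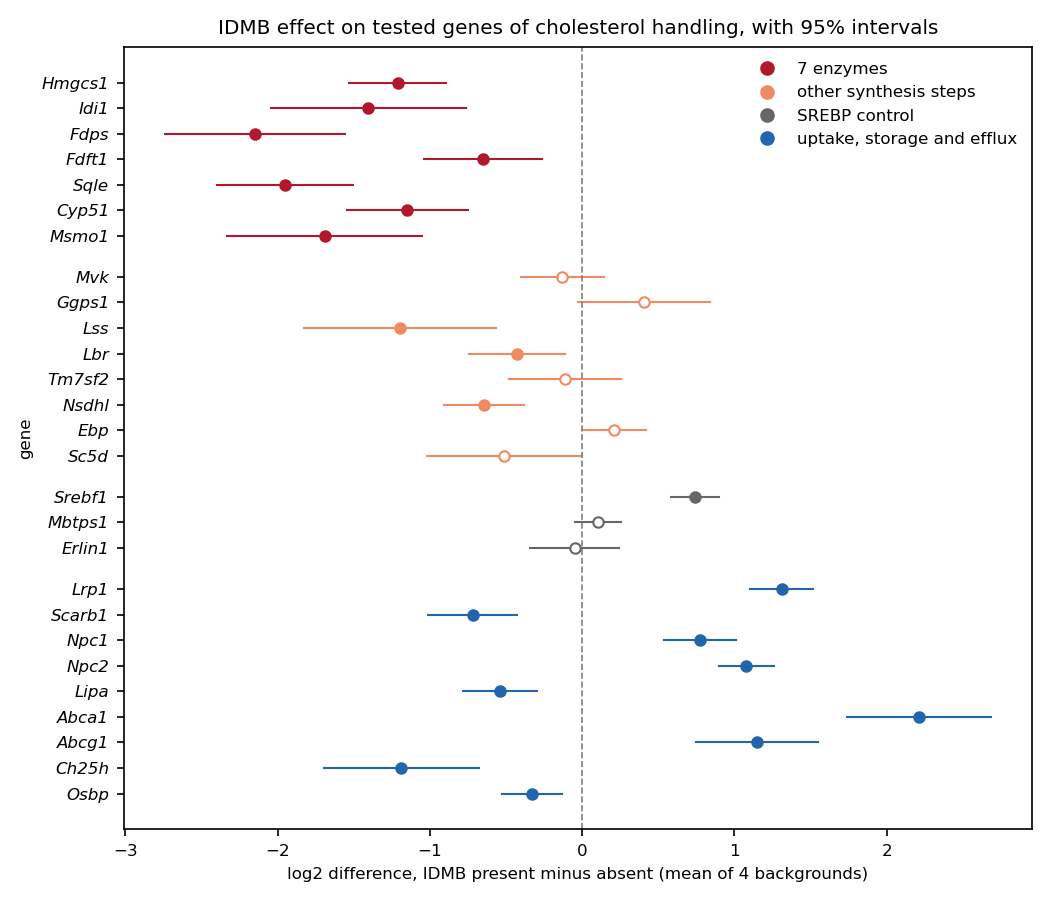
Mean IDMB difference (log2, present minus absent) with 95% intervals for the 7 enzymes and for the tested genes of 3 further lists; filled points passed the test (adjusted p under 0.05). The 7 enzymes lie between -2.15 and -0.65, Srebf1 lies at 0.74 and Abca1 at 2.21.

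The pattern of the 7 genes over the 8 group means was also sought among 5411 other tested genes, by Pearson correlation with the mean of the 7 after each was centred and scaled. The members themselves correlated with their own mean between 0.89 (Hmgcs1) and 0.99 (Fdps). Each member is part of that mean, which raises its correlation and so the lowest member's value used below. The 5 most similar genes outside the pathway lists were Rnaseh2b (0.992), Ccn2 (0.990), Itgb4 (0.989), Cavin3 (0.988) and Psat1 (0.987), and 175 genes reached the lowest member's value. The 8 points are group means that share arrays' scaling and are mostly set by the presence of IDMB. Psat1, an enzyme of serine synthesis, averaged 10007 in UT and 25085 with EGF against 4254 with IDMB. Ccn2, a matricellular protein, averaged 1235 in UT and 106 with IDMB, which is below the floor.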

How the data were processed

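One deposited table of linear probe-set intensities covered all 18 arrays. No source used here names the software that produced those intensities. Their means without the outer 2% lay between 2501.38 and 2501.71 on every array. Probe sets were named from GEO's platform annotation: 10855 had 1 gene symbol, 396 several and 1237 none. Values were floored at 143.5 (20th percentile) and taken to log2. Of the 12422 non-control probe sets, 7134 with a group mean of at least 849.9 (the median of all values) in some group were tested.

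limma 3.58.1 in R 4.3.3 fitted a mean per group over all 18 arrays (10 residual degrees of freedom, eBayes with trend), after the code was tested on simulated data. Mean effects weight 4 backgrounds equally, and p-values were adjusted within each comparison. Fold changes come from log2 of floored intensities, and their precision is limited by the number of arrays.

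The 7 genes and the gene lists were chosen with earlier results of these data known. All members were named by rule, with list genes that passed a main comparison. Nothing in the labels says that replicates were separate experiments, so p-values measure only the spread between these arrays. Replicate numbers were not taken to pair the arrays: over 28 pairs of groups, deviations of same-numbered arrays correlated between -0.10 and 0.28, with 9 over 0.1. Alternatives covered normalization, floor, filter, variance trend, RNA-quality ratios, probe-set choice, a replicate block and each array left out.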

Additional observations from a re-analysis of the deposited data

How the results depend on the processing

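Of 11 alternative settings, 11 left the mean IDMB count within 1.5 times of 7, at between 5 and 7 genes, and the count was 7 in all 18 fits that left out an array. The filter at the 70th percentile left out Cyp51. The mean EGF count of 1 became 0 without the filter on dim probe sets, with eBayes without trend, and with the actin or the Gapdh ratio as covariate, where limma called 0 of 7134 probe sets; leaving out each array gave between 0 and 2. The 14 called pairs of gene and single background became 4 without the filter and 4 with the actin ratio as covariate, and between 9 and 19 when an array was left out; without either EGF+TCDD array it was 9. The cause of these shifts was not tested. The counts of 0 for the mean TCDD effect and for the 3 interactions stayed 0 in all 29 settings. A replicate block gave 7 genes for IDMB, 1 for EGF, 0 for TCDD and 16 pairs, while over all probe sets the EGF by TCDD calls went from 319 to 597. No difference that was called reversed its direction. The number of arrays, 2 in most groups, limits what the comparisons within a single background can show.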
